A study of Homo sapiens with 30 samples.

Results

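This account concerns the effect of CHIR99021 (CHIR) on the RNA of U2OS cells that carry FOXP2 without a short helix. U2OS is a human osteosarcoma cell line; every library came from this 1 line, and the labels call it epithelial. The libraries were chosen by their labels: 5 of dhelix FOXP2 + CHIR cells and 5 of dhelix FOXP2 cells, 10 of the 30 libraries in the series. Both groups received 500 ng of a plasmid encoding FOXP2 with residues 264 to 272 deleted, and RNA was taken 48 h later; in the dhelix FOXP2 + CHIR group 5 µM of the drug had been in the medium from 72 h before transfection. The 4 other groups, also of 5 libraries each, serve here only to show where the response differs: WT FOXP2 + CHIR and WT FOXP2, with a plasmid for full-length wild-type FOXP2, and CHIR and mock. Both WT FOXP2 groups also received 500 ng of plasmid. For the WT FOXP2 + CHIR and CHIR groups the same 5 µM dose, 72 h before transfection, is recorded, and 48 h of transfection for all 4 groups. Mock means mock-transfected control cells, and the labels do not say whether they received an empty plasmid. The labels of the CHIR group do not say whether its cells were mock-transfected, although times before and after transfection are recorded for it. Below, "the effect in mock cells" is the CHIR group against the mock group. The 5 samples of a group are described as biological replicates, and nothing says whether they came from separate cultures on separate days.

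CHIR99021 inhibits glycogen synthase kinase 3, the kinase that marks β-catenin for destruction in a complex with axin, APC and casein kinase 1. When the kinase is blocked, β-catenin accumulates, enters the nucleus and binds transcription factors of the TCF/LEF family, and cells then switch on Wnt target genes, many of which encode inhibitors of the pathway itself. FOXP2, a transcription factor with a forkhead DNA-binding domain, is best known from inherited disorders of speech and language. The title of the series concerns the control of FOXP2 activity by β-catenin through several binding sites, and the comparison described here asks how the transcriptome responds to CHIR when the helix of FOXP2 is missing.

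Total counts were 15987830 to 19701481 per library in dhelix FOXP2 + CHIR cells and 22096650 to 29466652 in dhelix FOXP2 cells, so the group with the drug was shallower. Levels are given as normalised CPM (counts relative to the scaled library size), log2 fold changes as CHIR over no CHIR ± SE, and a change was called at an adjusted p under 0.05 from edgeR's quasi-likelihood test with Benjamini-Hochberg adjustment over all 18485 genes tested. dhelix FOXP2 replicate 5 stood apart from the other libraries of its group, with a mean chi-square per gene of 10.9, against 3.92 to 4.62 in the other libraries. In the groups used for comparison, CHIR replicate 1 and WT FOXP2 + CHIR replicate 4 stood apart, with values of 28.5 and 5.98. The mesenchymal marker list (10 genes) had summed levels of 2674 to 2821 CPM in dhelix FOXP2 + CHIR cells and 4128 to 4238 CPM in dhelix FOXP2 cells, and the epithelial list (14 genes) had 608 to 655 CPM and 688 to 736 CPM in these groups. E-cadherin (CDH1), the defining epithelial adhesion protein, averaged 0.650 CPM in dhelix FOXP2 + CHIR cells and 1.34 CPM in dhelix FOXP2 cells. Other epithelial markers were present: the keratins KRT18 and KRT8 averaged 374 and 212 CPM in dhelix FOXP2 + CHIR cells and 448 and 209 CPM in dhelix FOXP2 cells, and 8 of the 14 reached a mean of 1 CPM in dhelix FOXP2 + CHIR cells and 9 in dhelix FOXP2 cells.

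FOXP2 RNA itself differed between the groups. It stood at 13942, 14236, 11903, 13775 and 13549 normalised CPM in dhelix FOXP2 + CHIR cells, against 4655, 6359, 5301, 4974 and 5308 CPM in dhelix FOXP2 cells. All 5 libraries with CHIR lay above all 5 without, at means of 13481 ± 917 CPM with CHIR and 5319 ± 640.5 CPM in dhelix FOXP2 cells (SD, n = 5 each), a 2.53-fold difference (exact permutation test on log2 CPM, two-sided p = 0.00794, the smallest that 5 against 5 allows). In CHIR and mock cells FOXP2 averaged 0.504 and 0.898 CPM. The counts do not separate transcripts of the plasmid from those of the cell's own gene. Every difference below is therefore one between cells with CHIR and more FOXP2 RNA and cells without CHIR and with less FOXP2 RNA, and the effects of CHIR and of the higher FOXP2 level cannot be told apart. In WT FOXP2 cells the log2 fold change of FOXP2 was 1.11, and the difference between the effects, 0.23 ± 0.12, did not pass (adjusted p = 0.219, edgeR), though it did with no filter on low counts (0.17, adjusted p = 0.0387, edgeR).

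Most genes differed in RNA level between dhelix FOXP2 + CHIR and dhelix FOXP2 cells. Of 18485 genes tested 11680 (63.2%) were called, 6310 higher (34.1%) and 5370 lower (29.1%). Most of these changes were small: 1580 genes were called and at least 2-fold higher and 608 at least 2-fold lower, and the median absolute log2 fold change was 0.304. The libraries of both groups did not overlap for 9858 genes (53.3%), 28.0% of all genes higher and 25.3% lower. Counts of members in the lists below are to be read against these shares. Without dhelix FOXP2 replicate 5, 5641 genes were higher and 5793 lower. The median log2 fold change of all genes was 0.04 with all libraries and 0.001 to 0.003 without dhelix FOXP2 replicate 2, 3, 4 or 5 or dhelix FOXP2 + CHIR replicate 2, so the direction of changes of that size depends on the libraries used.

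Genes on a list of Wnt feedback inhibitors and of TCF/LEF genes known as direct targets mostly rose in dhelix FOXP2 cells. They are called Wnt feedback genes below, and LEF1, TCF7 and LGR5 are among them. Of 9 tested genes on this list 7 were called higher and 0 lower by edgeR, all 9 estimates being above 0, with a median log2 fold change of 1.51, against 0.04 over all genes. AXIN2, the scaffold of the β-catenin destruction complex and a widely used readout of Wnt activity, stood at 75.6, 60.8, 58.0, 67.6 and 50.2 CPM in dhelix FOXP2 + CHIR cells, against 9.95, 9.07, 10.1, 11.2 and 9.57 CPM in dhelix FOXP2 cells (log2 fold change 2.65 ± 0.10, adjusted p = 9.84e-22, edgeR). The lowest CHIR library was several-fold above the highest library without the drug.

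NKD1, which binds Dishevelled and dampens the signal, had 50.7, 41.2, 41.2, 49.0 and 32.7 CPM in dhelix FOXP2 + CHIR cells and 5.79, 7.08, 7.85, 8.06 and 7.62 CPM in dhelix FOXP2 cells (log2 fold change 2.57 ± 0.13). LEF1, a transcription factor that carries β-catenin to DNA, had 95.5, 83.7, 85.4, 91.97 and 74.8 CPM with CHIR and dhelix FOXP2, against 27.1, 30.2, 33.5, 30.5 and 30.7 CPM with dhelix FOXP2 alone (log2 fold change 1.51 ± 0.06, adjusted p = 5.5e-23, edgeR). The groups did not overlap for either gene. RNF43 is a ubiquitin ligase that removes Frizzled receptors from the cell surface, and it showed the largest rise on the list: 35.4, 22.0, 23.6, 31.6 and 17.2 CPM in dhelix FOXP2 + CHIR libraries, against 1.65, 1.02, 1.35, 1.02 and 1.49 CPM in dhelix FOXP2 libraries (log2 fold change 4.32 ± 0.20, adjusted p = 7.58e-18, edgeR). Its paralogue ZNRF3 rose by 0.39 ± 0.05 and NOTUM, a secreted enzyme that strips the lipid from Wnt proteins, by 0.43 ± 0.11 on the log2 scale. TCF7, another partner of β-catenin on DNA, averaged 0.404 CPM with CHIR and 0.112 CPM in dhelix FOXP2 cells, near the limit of detection, and passed the test (adjusted p = 0.000393, edgeR). LGR5 (0.31 ± 0.27, adjusted p = 0.321) and NKD2 (0.29 ± 0.16, adjusted p = 0.108) did not pass the edgeR test. Within the dhelix FOXP2 + CHIR group, replicate 1 was the highest and replicate 5 the lowest library for AXIN2, NKD1, LEF1 and RNF43 alike, an order noticed after their values were seen; FOXP2 RNA did not follow it, being highest in replicate 2 and lowest in replicate 3.

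**Figure D1:**
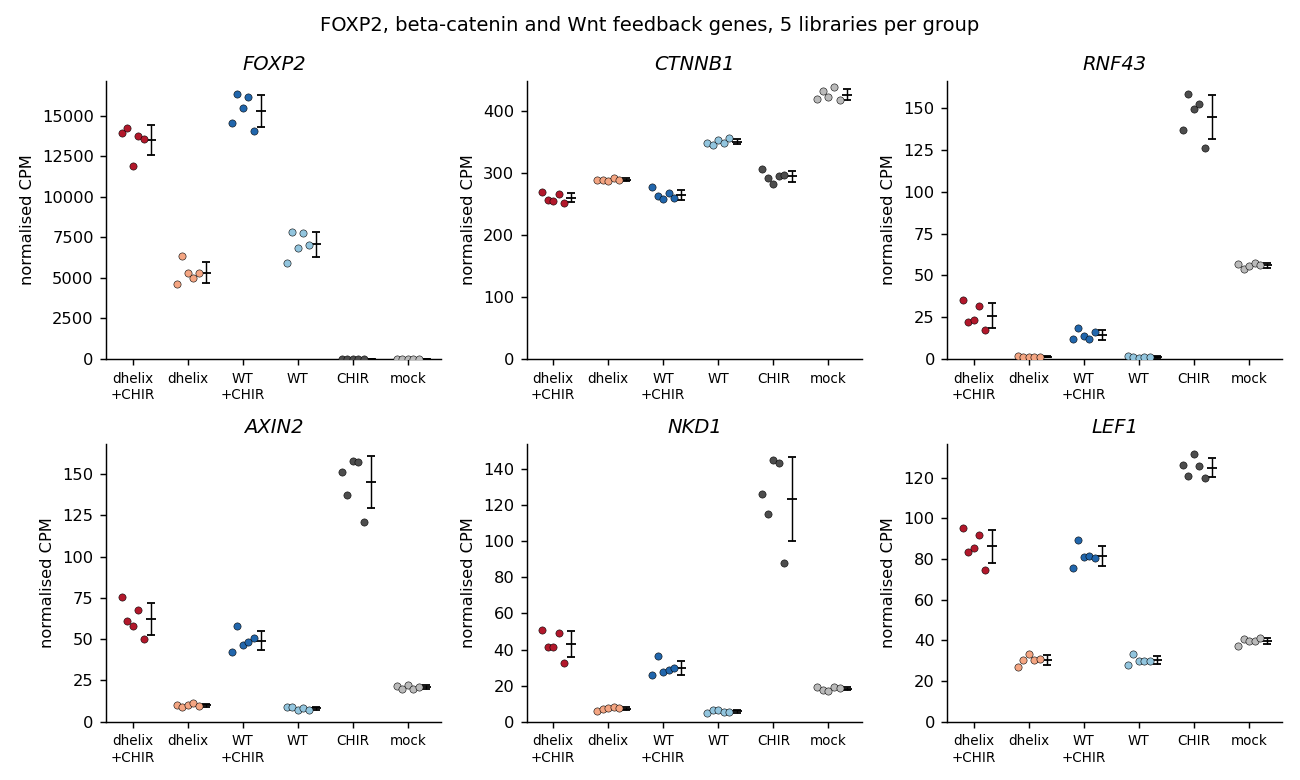
Normalised CPM (y axes, linear, from 0) of FOXP2, CTNNB1, RNF43, AXIN2, NKD1 and LEF1 in each of the 30 libraries; points are libraries, bars the group mean ± SD (n = 5). The 5 dhelix FOXP2 + CHIR libraries of AXIN2 lie at 50.2 to 75.6 CPM and the 5 dhelix FOXP2 libraries at 9.07 to 11.2 CPM, while CTNNB1 is lower with CHIR.

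Other described Wnt targets did not move one way. Of 19 tested, 11 were higher and 5 lower, with a median of 0.47. TNFRSF19 (TROY), a receptor of the TNF family, had 6.29, 3.69, 4.03, 6.62 and 4.28 CPM in dhelix FOXP2 + CHIR cells, against 0.539, 0.455, 0.521, 0.340 and 0.371 CPM in dhelix FOXP2 cells (log2 fold change 3.46 ± 0.21). EPHB3, an Eph receptor known as a Wnt target in the intestine, had 16.1, 16.8, 14.5, 16.04 and 16.6 CPM with CHIR, against 5.43, 6.27, 6.60, 6.09 and 5.71 CPM in dhelix FOXP2 cells (log2 fold change 1.41 ± 0.08). EPHB2, MSX1, MSX2, PPARD, BAMBI, JAG1 and FGF9 were among the others that were higher, by 0.40 to 1.30 on the log2 scale.

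Some of these described targets were lower instead. MYC, the growth-promoting transcription factor, had 125, 128, 133, 112 and 138 CPM in dhelix FOXP2 + CHIR cells, against 239.8, 226, 229, 231 and 228 CPM in dhelix FOXP2 cells (log2 fold change -0.86 ± 0.05, adjusted p = 2.16e-18, edgeR). SOX9, a transcription factor of cartilage and of stem cells, had 59.7, 59.4, 67.0, 62.4 and 66.3 CPM with CHIR and 138, 132, 134, 127 and 135 CPM in dhelix FOXP2 cells. The ranges did not overlap in either gene. CD44, the hyaluronan receptor, ranged over 247 to 276 CPM with CHIR and 439 to 461 CPM in dhelix FOXP2 cells (log2 fold change -0.81 ± 0.04). CCND1 (cyclin D1) fell by 0.27 and PTCH1, the Hedgehog receptor, by 0.20 on the log2 scale, while TBX3, NRCAM and FGF18 did not pass.

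Among the ligands, 7 of 15 tested genes of Wnt proteins and their secretion were higher and 3 lower. WNT6 had 10.5, 10.1, 10.5, 8.71 and 8.66 CPM in dhelix FOXP2 + CHIR cells, against 1.72, 0.981, 1.60, 1.25 and 1.30 CPM in dhelix FOXP2 cells (log2 fold change 2.81 ± 0.21). WNT11, a ligand mainly tied to β-catenin-independent signalling, had 4.53, 4.46, 3.72, 3.91 and 3.71 CPM with CHIR, against 0.503, 0.525, 0.451, 0.378 and 0.371 CPM in dhelix FOXP2 cells (log2 fold change 3.16 ± 0.29). In both genes all 5 CHIR libraries were above all dhelix FOXP2 libraries, WNT11 starting from a low level. WNT9A rose by 1.57 ± 0.08, WNT4 by 0.80 ± 0.21, WNT7B by 0.65 ± 0.10, WNT5B by 0.50 ± 0.13 and WNT3 by 0.46 ± 0.07 on the log2 scale. The lower calls were small: WNT10B (-0.23), WNT3A (-0.32) and WLS (-0.09), the carrier that brings Wnt proteins to the surface. Only 1 of these 3 calls was left without dhelix FOXP2 replicate 1 or without dhelix FOXP2 + CHIR replicate 1, 3, 4 or 5. WNT5A, WNT2B, WNT7A, WNT10A and PORCN did not pass.

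The receptors were split, with 7 of 17 higher and 9 lower, and a median of -0.16. LGR6, a receptor for R-spondins, rose by 2.06 ± 0.20 (mean 3.40 CPM with CHIR and 0.812 CPM in dhelix FOXP2 cells). The Wnt5a receptors of the ROR family also rose, ROR2 by 0.94 ± 0.08 and ROR1 by 0.85 ± 0.10, and FZD5 and FZD7 by 0.58 and 0.37. FZD10 was close to absent without CHIR, at a mean of 0.419 CPM with CHIR and 0.0285 CPM in dhelix FOXP2 cells. In the other direction FZD2 had 5.54, 4.81, 5.40, 4.69 and 4.33 CPM in dhelix FOXP2 + CHIR cells, against 17.7, 15.97, 15.8, 15.0 and 13.7 CPM in dhelix FOXP2 cells (log2 fold change -1.66 ± 0.12, adjusted p = 4.59e-14, edgeR). FZD4, FZD1, FZD6 and FZD3 fell by 0.65, 0.49, 0.33 and 0.16, and the co-receptors LRP6 and LRP5 by 0.36 and 0.32 on the log2 scale.

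Secreted regulators included 5 of 10 genes that were higher and 2 that were lower. KREMEN2, a transmembrane partner of Dickkopf proteins, had 26.1, 27.7, 27.9, 25.0 and 24.1 CPM with CHIR, against 8.12, 9.25, 8.61, 8.10 and 9.01 CPM in dhelix FOXP2 cells (log2 fold change 1.60 ± 0.11). DKK2, which binds LRP receptors, had 4.08, 3.87, 3.48, 5.13 and 4.33 CPM with CHIR and 1.22, 0.736, 1.22, 0.984 and 0.882 CPM in dhelix FOXP2 cells (log2 fold change 2.04 ± 0.19). Neither gene showed overlap between its groups. SFRP4, a decoy that binds Wnt proteins, rose by 1.41 ± 0.23, whereas its relative SFRP1 fell by 0.45 and DKK3 by 0.67 on the log2 scale. SOSTDC1 had 3 counts in all dhelix FOXP2 + CHIR libraries and 17 in all dhelix FOXP2 libraries, and did not pass.

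Apart from AXIN2, LEF1 and TCF7, which are counted with the Wnt feedback genes above, most of the pathway's core changed little at the RNA level. Of 16 genes of the destruction complex and Dishevelled, 6 were higher and 4 lower, all but 2 of them by less than 0.40. Those 2 are APC2, a relative of APC (0.88 ± 0.15), and AXIN1, the constitutive counterpart of AXIN2 (0.51 ± 0.06). The lower calls numbered 2 with libraries thinned to equal depth, and with no filter 4 were higher and 6 lower. GSK3B, which encodes the β form of the kinase that CHIR inhibits, had a log2 fold change of 0.00 ± 0.03 and did not pass (adjusted p = 0.98, edgeR), and GSK3A rose by 0.31 ± 0.07. CTNNB1, the gene of β-catenin, had 269, 257, 256, 266 and 252 CPM in dhelix FOXP2 + CHIR cells, against 289, 289.8, 288, 293 and 289.8 CPM in dhelix FOXP2 cells. The groups did not overlap, and the fall was small (log2 fold change -0.16 ± 0.03, adjusted p = 8.32e-06, edgeR). Nuclear partners gave 2 higher and 6 lower calls among 16. JUP (plakoglobin), a close relative of β-catenin, rose by 1.31 ± 0.12, while TCF7L2 fell by 0.30 and the co-repressor CTBP2 by 0.47 on the log2 scale.

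The largest named rises were in genes that were all but silent without the drug. These genes reached the rule's mean of at least 1 CPM through the CHIR libraries. Of the 12 named, 5 are annotated as protein coding in GENCODE release 29, 4 as lincRNA, 1 as antisense and 1 as a pseudogene, and 1 ID was not matched. IGFL2, a secreted protein of the IGF-like family, had 54.3, 49.9, 44.7, 51.6 and 35.7 CPM in dhelix FOXP2 + CHIR cells, against 0, 0, 0.0695, 0 and 0.139 CPM in dhelix FOXP2 cells (log2 fold change 10.08 ± 0.29, adjusted p = 2.15e-23, edgeR). RASGRP3, an activator of Ras proteins, had 29.4, 22.7, 21.3, 26.6 and 15.1 CPM with CHIR, against 0.180, 0.140, 0.104, 0.265 and 0.186 CPM in dhelix FOXP2 cells (log2 fold change 7.01 ± 0.44). In both, replicate 5 was the lowest and replicate 1 the highest of the CHIR libraries. SLC30A10, a manganese exporter, averaged 8.61 ± 1.03 CPM with CHIR and 0.0307 ± 0.0310 CPM in dhelix FOXP2 cells (SD, n = 5 each), and the olfactory receptor pseudogene OR5H5P 10.4 ± 0.843 CPM with CHIR and 0.0565 ± 0.0642 CPM in dhelix FOXP2 cells.

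Others of the 12 had 0 to 2 counts in all 5 dhelix FOXP2 libraries together. The lincRNA RP11-114M1.2 had 498 counts with CHIR and 0 in dhelix FOXP2 cells, at least 48.8-fold higher against a floor of 3 counts per library. CST1, a secreted cysteine protease inhibitor, had 447 counts with CHIR and 2 without, a depth-corrected ratio of 335 (95% counting interval 92.1 to 2771). RP11-95P13.1 had 913 counts with CHIR and 1 without, a ratio of 1367 (interval 245 to 54035), and RP11-431M7.2 had 377 and 1, a ratio of 564 (interval 101 to 22347). RP11-58K22.1, RP11-415C15.2, RP11-392O17.1 and SLC35F4 had 195 to 339 counts with CHIR and 2 each in dhelix FOXP2 cells. The intervals cover counting error only. Since the strand setting is not given in the sources used here, an antisense gene such as RP11-431M7.2 may share reads with its partner.

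The largest named falls were in genes with clear levels without the drug. The naming rule, with its mean of at least 1 CPM, requires this of steeply falling genes. The lowest log2 fold change over all genes, -5.27, belonged to a gene that did not meet the rule. LIMCH1, an actin- and myosin-binding protein, had 13.5, 11.7, 13.9, 11.6 and 13.0 CPM in dhelix FOXP2 + CHIR cells, against 249, 237, 241, 250.5 and 244 CPM in dhelix FOXP2 cells (log2 fold change -4.26 ± 0.05, adjusted p = 1.62e-39, edgeR). KISS1, which encodes the kisspeptin peptides, had 8.81, 9.73, 9.74, 7.55 and 9.85 CPM with CHIR, against 99.6, 104, 106, 107 and 107 CPM in dhelix FOXP2 cells (log2 fold change -3.52 ± 0.09). GRAMD1B, a carrier of cholesterol between membranes, had 7.70, 9.15, 8.87, 9.59 and 8.72 CPM with CHIR and 88.4, 97.5, 94.5, 93.1 and 95.6 CPM in dhelix FOXP2 cells (log2 fold change -3.42 ± 0.06). The spread within each group was small beside the gap between the groups. SDPR (cavin 2), a coat protein of caveolae, averaged 0.146 ± 0.0829 CPM with CHIR and 4.96 ± 0.443 CPM in dhelix FOXP2 cells. SLAMF9, GSG1, the acute-phase protein SAA1 and the non-coding genes LINC00473, LINC00707, LINC01059, C15orf54 and RP6-91H8.3 made up the other named falls, with log2 fold changes of -3.40 to -5.11.

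**Figure D2:**
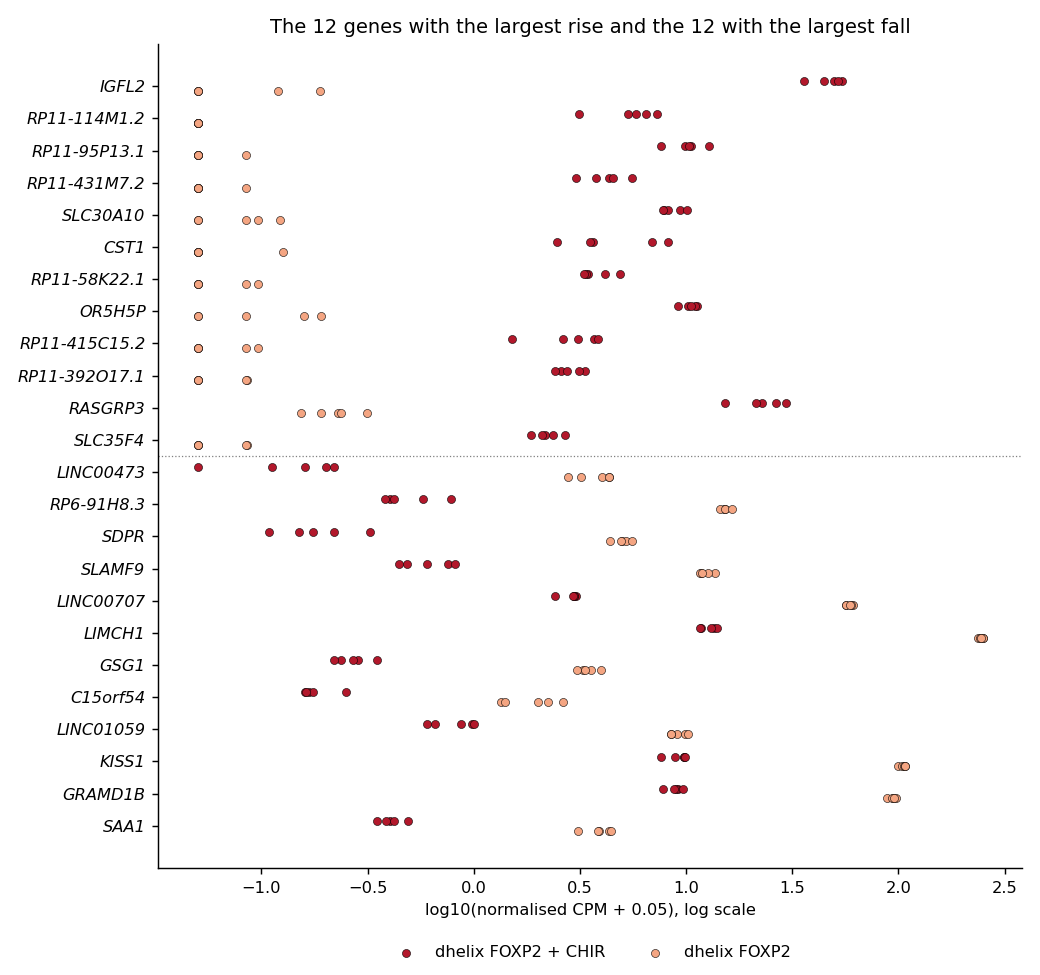
Level in each library, as log10(normalised CPM + 0.05), of the 12 genes with the largest rise (above the dotted line) and the 12 with the largest fall, dark points for dhelix FOXP2 + CHIR and light points for dhelix FOXP2 libraries (5 each). No gene shows overlap between the groups, because the naming rule asked for that.

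Genes of mitosis fell without exception. All 35 of 35 tested were called lower, where 29.1% of all genes were, with a median of -0.75 and a range of -1.23 (KIF20A) to -0.17. KIF20A, a kinesin needed for cytokinesis, had 54.5, 49.3, 51.3, 57.9 and 47.7 CPM in dhelix FOXP2 + CHIR cells, against 128, 119, 123, 123 and 119 CPM in dhelix FOXP2 cells (log2 fold change -1.23 ± 0.04, adjusted p = 1.67e-23, edgeR). HMMR, a spindle protein and hyaluronan receptor, had 40.7, 41.3, 43.8, 42.0 and 46.0 CPM with CHIR, against 99.2, 93.0, 97.6, 95.6 and 97.5 CPM in dhelix FOXP2 cells (log2 fold change -1.18 ± 0.06). NUSAP1, which bundles spindle microtubules, had 85.7, 80.5, 83.2, 91.4 and 87.4 CPM with CHIR and 199.6, 181, 184, 187 and 188 CPM in dhelix FOXP2 cells, and CENPA, the histone H3 variant of centromeres, 28.1, 25.4, 29.9, 28.7 and 30.7 CPM with CHIR and 63.4, 59.8, 59.6, 60.8 and 61.9 CPM in dhelix FOXP2 cells (log2 fold changes -1.13 ± 0.04 and -1.10 ± 0.04). In each of these 4 genes every CHIR library lay far below every dhelix FOXP2 library. In bulk RNA, fewer cells in mitosis and less of these RNAs per cell cannot be told apart. All 35 remained lower when each library was left out in turn, and under each of the other settings tried.

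Promoters of mitotic genes are known for CCAAT boxes, bound by NF-Y, and for the cell cycle genes homology region (CHR), bound by the DREAM and MuvB complexes. Shown are the 250 bases before the start of the 4 mitotic genes above, from RefSeq on GRCh38.p14, written 5′ to 3′ on the gene's strand (plus for all 4), because these genes fell together; capitals mark matches on either strand of the CHR letters TTTGAA, read as TTCAAA from the other strand, and of the CCAAT box letters CCAAT, read as ATTGG from the other strand.
KIF20A promoter, chr5:138178862-138179111: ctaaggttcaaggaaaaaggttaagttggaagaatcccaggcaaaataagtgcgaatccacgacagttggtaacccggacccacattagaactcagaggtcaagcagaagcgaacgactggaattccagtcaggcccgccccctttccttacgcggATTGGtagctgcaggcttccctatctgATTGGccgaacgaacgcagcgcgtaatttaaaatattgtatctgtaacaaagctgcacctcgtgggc
HMMR promoter, chr5:163460382-163460631: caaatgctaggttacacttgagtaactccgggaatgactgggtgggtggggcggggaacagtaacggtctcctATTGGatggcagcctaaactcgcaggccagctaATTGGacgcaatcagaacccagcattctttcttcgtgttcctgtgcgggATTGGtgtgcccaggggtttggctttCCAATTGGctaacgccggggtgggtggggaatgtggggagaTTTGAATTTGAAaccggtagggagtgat
NUSAP1 promoter, chr15:41332631-41332880: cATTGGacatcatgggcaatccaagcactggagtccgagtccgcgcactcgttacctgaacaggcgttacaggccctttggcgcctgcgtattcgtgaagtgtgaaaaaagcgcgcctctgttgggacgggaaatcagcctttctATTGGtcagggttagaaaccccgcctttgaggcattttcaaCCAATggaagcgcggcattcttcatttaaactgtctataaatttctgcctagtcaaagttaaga
CENPA promoter, chr2:26785806-26786055: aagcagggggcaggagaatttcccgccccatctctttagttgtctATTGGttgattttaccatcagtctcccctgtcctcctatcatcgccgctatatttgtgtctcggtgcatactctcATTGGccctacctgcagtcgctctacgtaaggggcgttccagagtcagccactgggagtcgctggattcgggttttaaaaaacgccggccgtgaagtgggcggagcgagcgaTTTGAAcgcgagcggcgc
HMMR held the CHR letters at 28 and 22 bases before its start and CENPA at 18 bases, and KIF20A and NUSAP1 did not hold them in this window. Matches of the CCAAT box letters numbered 2 in KIF20A, 5 in HMMR, 3 in NUSAP1 and 2 in CENPA. In HMMR the matches at 69 and 66 bases before the start overlap and share bases. Of 35 tested mitotic genes 29 were matched by symbol, with 38 windows; 52.6% of the windows held the CHR letters, 76.3% a CCAAT box and 44.7% both. Over all 35116 windows the shares were 13.3%, 32.0% and 4.7%. The TCF/LEF core CTTTGA, searched also as TCAAAG for the other strand, was in 5.3% of the mitotic windows and 11.2% of all windows, and in none of 6 windows of the 4 matched Wnt feedback genes. CTTTGA and TTTGAA overlap where the letters read CTTTGAA, which was so in 1 mitotic window. Such matches describe letters in the sequence and say nothing of binding in these cells.

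DNA replication genes mostly fell too, by less. Of 44 tested, 31 were lower and 8 higher, with a median of -0.20; the higher calls numbered 3 to 5 without dhelix FOXP2 replicate 2, 3, 4 or 5 or dhelix FOXP2 + CHIR replicate 1 or 2. UHRF1, which couples DNA methylation to replication, fell by 0.81, the replication protein RPA3 by 0.71 and the primase subunit PRIM1 by 0.65 on the log2 scale. In the list of MYC-family and G1 genes 13 of 21 were lower and 4 higher. The inhibitor of cyclin-dependent kinases CDKN1C rose (1.21 ± 0.11; 5.23, 5.75, 5.27, 5.13 and 5.91 CPM with CHIR, against 2.62, 2.38, 2.33, 2.23 and 2.14 CPM in dhelix FOXP2 cells), whereas CDKN2C fell (-1.19 ± 0.07; 10.4, 9.91, 10.1, 11.2 and 11.3 CPM with CHIR and 24.9, 23.0, 24.4, 23.4 and 24.8 CPM in dhelix FOXP2 cells). Of 29 targets of p53, 16 were higher and 5 lower, among them the death receptor FAS (1.12 ± 0.08), GADD45B (0.93 ± 0.07), FDXR (0.74 ± 0.07) and ZMAT3 (0.74 ± 0.05).

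Genes that respond to YAP and TGF-β held some of the steepest falls. CTGF, a secreted matricellular protein, had 65.9, 65.5, 66.0, 67.5 and 74.6 CPM in dhelix FOXP2 + CHIR cells, against 447, 500.3, 442, 448 and 473 CPM in dhelix FOXP2 cells (log2 fold change -2.77 ± 0.05, adjusted p = 1.06e-32, edgeR). Its relative CYR61 had 52.1, 53.9, 53.2, 54.1 and 61.4 CPM with CHIR and 345, 324, 323, 325 and 335 CPM in dhelix FOXP2 cells (log2 fold change -2.59 ± 0.04). EDN1 (endothelin 1) fell by 2.20 on the log2 scale. Another relative of CTGF went the other way: WISP1, known as a Wnt-induced gene, had 6.34, 4.16, 6.02, 7.002 and 4.28 CPM with CHIR, against 0.431, 0.210, 0.417, 0.454 and 0.325 CPM in dhelix FOXP2 cells (log2 fold change 3.90 ± 0.19). Over the whole list 10 of 27 genes were higher and 15 lower.

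Matrix genes were mixed. Of 37 collagens 17 were higher and 9 lower (median 0.10). COL24A1, a fibrillar collagen of bone and cornea, had 3.72, 3.34, 4.16, 3.64 and 2.48 CPM in dhelix FOXP2 + CHIR cells, against 0.359, 0.245, 0.208, 0.303 and 0.279 CPM in dhelix FOXP2 cells (log2 fold change 3.61 ± 0.26), and COL19A1 fell by 1.74 on the log2 scale. The laminin chain LAMA2 rose by 1.78 ± 0.08, while perlecan (HSPG2) fell by 0.69. Among other matrix genes the counts were 9 higher and 14 lower of 27, from THBS2 (3.51 ± 0.29) to MFAP5, a microfibril protein, with 2.92, 2.29, 3.29, 3.20 and 2.48 CPM with CHIR and 21.5, 20.9, 19.8, 21.0 and 19.8 CPM in dhelix FOXP2 cells. LOX, which crosslinks collagen, averaged 7.60 ± 0.583 CPM with CHIR and 24.3 ± 2.11 CPM in dhelix FOXP2 cells. The mesenchymal markers fell in 7 of 10 cases, but CDH11, the cadherin of osteoblasts, rose, with 78.8, 74.2, 70.8, 78.1 and 56.4 CPM with CHIR and 16.9, 14.6, 16.8, 14.9 and 14.5 CPM in dhelix FOXP2 cells (log2 fold change 2.20 ± 0.10).

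Genes of bone formation and described targets of FOXP2 share RUNX2, the master regulator of osteoblasts. It had 32.6, 28.8, 30.8, 32.97 and 29.4 CPM in dhelix FOXP2 + CHIR cells, against 10.6, 9.18, 9.41, 9.38 and 10.1 CPM in dhelix FOXP2 cells (log2 fold change 1.67 ± 0.06, adjusted p = 4.44e-24, edgeR). BMP2, a bone morphogenetic protein, had 24.1, 24.2, 25.6, 25.6 and 24.4 CPM with CHIR and 8.01, 10.7, 10, 9.16 and 9.38 CPM in dhelix FOXP2 cells. SPP1 (osteopontin), a protein of bone matrix, fell by 1.35 on the log2 scale, and DLX5, a homeobox factor of osteoblasts, was at 0 in both groups; the 20 osteoblast genes summed to 376 to 393 CPM with CHIR and 354 to 369 CPM in dhelix FOXP2 cells. The list gave 4 higher and 1 lower of 9, with 2 lower under several settings, among them without dhelix FOXP2 replicate 2, 3, 4 or 5 and dhelix FOXP2 + CHIR replicate 2 or 5. Of 20 described FOXP2 targets 13 were higher and 2 lower (4 lower without dhelix FOXP2 replicate 2, 3, 4 or 5 or dhelix FOXP2 + CHIR replicate 2), with a median of 0.64. SYN3 (synapsin III) had 2.47, 2.76, 2.48, 2.21 and 2.03 CPM with CHIR and 0.755, 0.911, 0.590, 0.870 and 0.789 CPM in dhelix FOXP2 cells, and SRPX2, a secreted protein tied to speech areas of the brain, 58.0, 53.8, 56.9, 57.9 and 54.8 CPM with CHIR and 28.0, 26.0, 26.9, 23.9 and 26.3 CPM in dhelix FOXP2 cells.

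Among genes of axon guidance 32 of 60 were higher and 16 lower. The ephrin receptor EPHA4 had 46.4, 39.2, 33.7, 42.2 and 38.4 CPM in dhelix FOXP2 + CHIR cells, against 6.61, 7.67, 7.22, 6.28 and 6.73 CPM in dhelix FOXP2 cells (log2 fold change 2.53 ± 0.07). SEMA6A, a transmembrane semaphorin, had 17.2, 12.9, 13.2, 18.4 and 10.3 CPM with CHIR and 3.27, 3.75, 3.96, 3.78 and 3.16 CPM in dhelix FOXP2 cells, with the highest values again in replicates 1 and 4. PLXNA2, a semaphorin receptor, went down, with 17.8, 20.3, 18.4, 19.8 and 20.9 CPM with CHIR, against 60.3, 69.1, 65.6, 66.8 and 69.7 CPM in dhelix FOXP2 cells (log2 fold change -1.77 ± 0.06). Neuronal markers summed to 208 to 237 CPM in dhelix FOXP2 + CHIR cells and 175 to 181 CPM in dhelix FOXP2 cells. Of 10 tested, 6 were higher, TUBB3 among them (1.54 ± 0.08). RBFOX3 was the 1 called lower, at means of 8.44 CPM with CHIR and 12.7 CPM in dhelix FOXP2 cells. The part of these markers in the guidance result was not tested.

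Cytokine and NF-κB genes rose in 21 of 24 cases, with 1 lower (2 without dhelix FOXP2 replicate 3 or 4) and a median of 0.81. CXCL3, a chemokine for neutrophils, had 19.2, 17.6, 17.2, 20.1 and 18.5 CPM with CHIR, against 6.61, 7.43, 6.63, 6.20 and 5.90 CPM in dhelix FOXP2 cells (log2 fold change 1.49 ± 0.08). CSF2 (GM-CSF) had 2.42, 2.58, 2.92, 3.25 and 2.48 CPM with CHIR and 0.575, 0.665, 0.868, 0.567 and 0.371 CPM in dhelix FOXP2 cells, and CXCL5 rose by 4.29 ± 0.38. GZMB, the protease granzyme B of cytotoxic lymphocytes, had 96.3, 79.0, 83.5, 92.1 and 76.0 CPM with CHIR, against 1.69, 1.44, 1.70, 1.44 and 1.49 CPM in dhelix FOXP2 cells (log2 fold change 5.78 ± 0.12, adjusted p = 5.7e-30, edgeR). The 12 blood-cell markers summed to 91.3 to 111 CPM with CHIR and 12.3 to 13.9 CPM in dhelix FOXP2 cells, nearly all of the difference being GZMB, while HBB and NKG7 were at 0 in both groups. The 9 endothelial markers summed to 54.1 to 63.2 CPM with CHIR and 33.9 to 36.2 CPM in dhelix FOXP2 cells; VWF (von Willebrand factor) rose by 2.47 ± 0.10, while 3 of 7 tested fell and CLDN5 was at 0. Of 26 interferon-stimulated genes 13 were lower and 5 higher.

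Further lists held single genes with clear shifts. INSIG1, which holds back sterol synthesis, had 113, 135, 126, 123 and 139 CPM in dhelix FOXP2 + CHIR cells, against 48.2, 55.1, 49.97, 49.4 and 49.4 CPM in dhelix FOXP2 cells (log2 fold change 1.33 ± 0.05); the sterol and fatty acid list gave 12 higher and 7 lower of 28. TFEB, a master regulator of lysosome genes, had 10.3, 10.03, 11.1, 9.04 and 10.2 CPM with CHIR and 4.02, 5.08, 4.24, 4.31 and 3.71 CPM in dhelix FOXP2 cells, and the lysosomal channel MCOLN1 28.1, 28.1, 28.3, 28.5 and 26.8 CPM with CHIR and 12.6, 11.2, 13.3, 12.03 and 11.3 CPM in dhelix FOXP2 cells. In both the groups were apart, and 18 of 36 lysosome and autophagy genes were higher and 10 lower. The clock transcription factor NPAS2 had 16.3, 15.9, 14.6, 13.0 and 16.6 CPM with CHIR and 57.7, 57.4, 57.5, 55.8 and 56.9 CPM in dhelix FOXP2 cells (log2 fold change -1.90 ± 0.05), while the clock repressor BHLHE40 had 130.2, 124, 128, 136 and 126 CPM with CHIR and 56.4, 56.2, 58.6, 51.4 and 55.2 CPM in dhelix FOXP2 cells (log2 fold change 1.21 ± 0.04).

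Forkhead genes, FOXP2 included, were split, with 12 of 31 higher and 10 lower; FOXJ1, the regulator of motile cilia, had 3.82, 5.10, 3.48, 3.86 and 5.01 CPM in dhelix FOXP2 + CHIR cells, against 0.934, 0.806, 1.22, 0.643 and 1.02 CPM in dhelix FOXP2 cells (log2 fold change 2.20 ± 0.19), and FOXN3 fell by 0.97. Matrix metalloproteinases and their inhibitors gave 7 higher and 6 lower calls of 19, from MMP12 (2.64 ± 0.28) and MMP10 (2.19 ± 0.30) to MMP8 (-2.17 ± 0.44). Smooth muscle genes gave 5 higher and 9 lower of 18, with the smooth muscle actin ACTA2 up by 1.83 ± 0.10 and the smooth muscle myosin MYH11 by 2.17 ± 0.40; only 3 were higher at a mean of at least 1 CPM. Immediate-early genes gave 11 higher, among them FOS (1.24 ± 0.07), and 8 lower, among them KLF2 (-1.43 ± 0.16), of 28, with 13 lower without a filter. Heat shock genes gave 4 higher and 8 lower of 16, with the co-chaperone DNAJB1 up by 0.86 ± 0.03 and the small heat shock protein CRYAB down (-1.46 ± 0.09). Of 30 hypoxia and glycolysis genes 13 were higher and 9 lower, and of 15 glycogen genes 6 and 5.

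Ribosomal protein and histone genes have near-identical copies, so their counts are uncertain. Of 85 ribosomal protein genes 8 were higher (5 without dhelix FOXP2 replicate 4) and 32 lower, with a median of -0.06; 52 were lower with only the groups compared in the fit and 51 without the 3 libraries that stood apart. Of 28 histone genes 15 were higher and 5 lower (2 or 3 lower without dhelix FOXP2 replicate 2 or 5 or dhelix FOXP2 + CHIR replicate 3, 4 or 5), with a median of 0.59. HIST4H4 had 8.25, 8.09, 9.12, 8.88 and 8.16 CPM with CHIR, against 3.95, 4.31, 3.75, 3.56 and 4.55 CPM in dhelix FOXP2 cells.

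**Figure D3:**
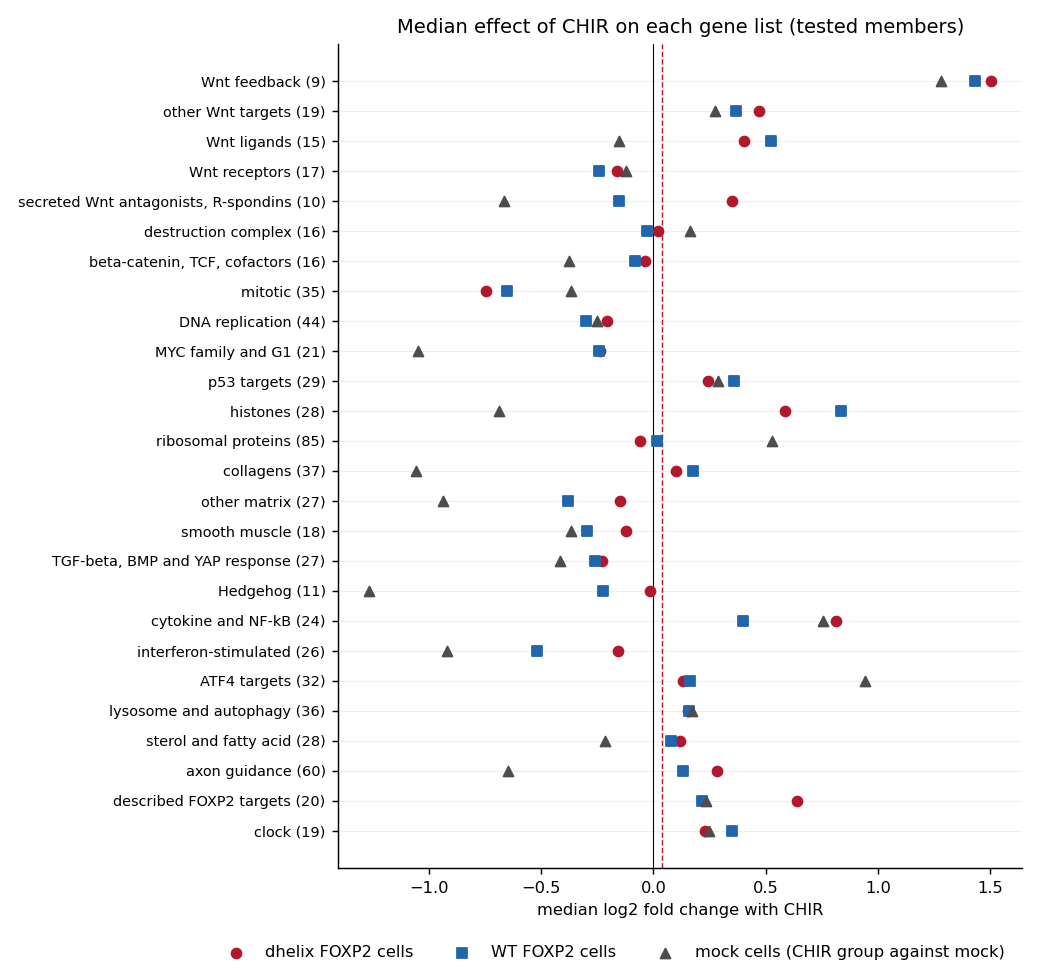
Median log2 fold change with CHIR (x axis) over the tested members of 26 gene lists (number of members in brackets): circles for dhelix FOXP2 cells, squares for WT FOXP2 cells, triangles for mock cells; the dashed line is the median of all genes in dhelix FOXP2 cells. Wnt feedback genes lie highest (1.51) and mitotic genes lowest (-0.75) in dhelix FOXP2 cells.

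The effect of CHIR in dhelix FOXP2 cells was set against that in mock cells, a pair of effects that share no library. The difference of effects was called for 11987 genes (64.8%), 5762 with a more positive effect in dhelix FOXP2 cells (31.2%) and 6225 with a more negative one (33.7%). In 8373 of these the absolute log2 fold change was smaller in dhelix FOXP2 cells and in 3614 it was larger. Genes called between cells with and without CHIR numbered 11680 in dhelix FOXP2 cells and 13695 (74.1%) in mock cells. Genes called in the same direction in both numbered 6253, which is 53.5% of the dhelix FOXP2 calls and 45.7% of the mock calls. Another 2860 were called in opposite directions, 24.5% and 20.9% of these lists. Across the 18485 genes Pearson's r between the effects was 0.447, given as a description, since genes are not independent replicates.

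Of the 9 Wnt feedback genes the effect was called more positive than in mock cells for 4 (31.2% of all genes) and more negative for 1 (33.7%). No difference was called for AXIN2 (-0.14 ± 0.13, adjusted p = 0.357, edgeR), LEF1 (-0.15 ± 0.08, adjusted p = 0.0991, edgeR), NKD1 (-0.19 ± 0.18) and NKD2 (0.29 ± 0.23). Those of AXIN2, LEF1 and NKD1 became called, at -0.21, -0.22 and -0.27, with no filter on low counts (adjusted p = 0.0395, 0.0121 and 0.0133, edgeR), and that of LEF1 also without dhelix FOXP2 replicate 1 or dhelix FOXP2 + CHIR replicate 1 (-0.19 in both). NOTUM rose in dhelix FOXP2 cells and fell in mock cells (0.43 and -0.50; difference 0.94 ± 0.14), as did TCF7 (1.79 and -3.00; difference 4.79 ± 0.61). LGR5, which did not pass in dhelix FOXP2 cells, fell in mock cells (-3.64; difference 3.95 ± 0.38). ZNRF3 rose by less in dhelix FOXP2 cells (0.39) than in mock cells (1.28; difference -0.89 ± 0.07). RNF43 rose by more: its log2 fold change was 4.32 ± 0.20 in dhelix FOXP2 cells and 1.37 ± 0.11 in mock cells, with means of 145 CPM in CHIR cells and 56.1 CPM in mock cells (difference 2.95 ± 0.24, adjusted p = 6.85e-12, edgeR). The level reached in dhelix FOXP2 + CHIR cells, a mean of 26.0 CPM, was thus below that of mock cells without the drug. MYC fell in dhelix FOXP2 cells (-0.86) and rose in mock cells (1.17), a difference of -2.03 ± 0.07 (adjusted p = 2.13e-24, edgeR). EPHB3 rose in dhelix FOXP2 cells (1.41) and fell in mock cells (-4.08), a difference of 5.49 ± 0.13. WNT11, EPHA4 and CSF2 also rose in dhelix FOXP2 cells and fell in mock cells, with called differences of 4.61 ± 0.33, 3.59 ± 0.10 and 4.81 ± 0.38. As with RNF43, the levels without CHIR may differ between dhelix FOXP2 and mock cells for the genes with opposite directions. Their part in these differences was not tested.

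Several of the strongest responses of mock cells were nearly missing in dhelix FOXP2 cells. LMCD1, a LIM-domain repressor of transcription, averaged 36.7 ± 1.81 CPM in dhelix FOXP2 + CHIR cells and 29.2 ± 1.06 CPM in dhelix FOXP2 cells (SD, n = 5 each), while CHIR cells averaged 12.6 CPM and mock cells 169.5 CPM. The difference of effects was 4.07 ± 0.07 (adjusted p = 2.68e-32, edgeR). SMOC1, a matrix protein that binds calcium, had means of 9.10 and 10.7 CPM in dhelix FOXP2 + CHIR and dhelix FOXP2 cells, and of 2.40 and 108 CPM in CHIR and mock cells (difference 5.26 ± 0.10). For the immune receptor SLAMF7 the means were 70.8 and 58.5 CPM in dhelix FOXP2 + CHIR and dhelix FOXP2 cells, and 95.2 and 4.04 CPM in CHIR and mock cells (difference -4.28 ± 0.07). In each case the dhelix FOXP2 cells without CHIR were already far from mock cells, so the starting levels differ between the effects.

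Whole lists differed as well. Over all genes the difference from mock cells was called negative for 33.7% and positive for 31.2%. Ribosomal protein genes were higher with CHIR in mock cells, 81 of 85 called (38.8% of all genes), with a median of 0.53, against a median of -0.06 in dhelix FOXP2 cells, and the difference was called negative for 82. ATF4 targets, genes of the amino acid stress response, had medians of 0.13 in dhelix FOXP2 cells and 0.94 in mock cells, with a negative difference called for 27 of 32. Collagens were lower with CHIR in mock cells (27 of 37, against 35.3% of all genes, median -1.06), and a positive difference was called for 28. In CHIR replicate 1, which stood apart, collagens lay at a median log2 of -0.452 against the other libraries of its group. That of the other CHIR libraries was -0.047 to 0.179. Mitotic genes lay at 0.18 in CHIR replicate 1. Counts of list members with a called difference were not repeated without this library. Hedgehog genes, all 11 of 11 lower in mock cells, had 4 higher and 3 lower calls in dhelix FOXP2 cells (2 higher without dhelix FOXP2 replicate 3, 4 or 5 or dhelix FOXP2 + CHIR replicate 2); GLI1, the pathway's target and effector, changed by 0.70 ± 0.12 in dhelix FOXP2 cells and -1.83 ± 0.09 in mock cells. Mitotic genes fell in both settings, with medians of -0.75 in dhelix FOXP2 cells and -0.37 in mock cells, and a more negative effect in dhelix FOXP2 cells was called for 25 of 35 and a more positive one for 1. Medians in WT FOXP2 cells were 0.015 for ribosomal protein genes, 0.164 for ATF4 targets, 0.177 for collagens and -0.654 for mitotic genes. For Hedgehog genes the median was -0.224 in WT FOXP2, -0.015 in dhelix FOXP2 and -1.27 in mock cells. Each WT FOXP2 median lay closer to that of dhelix FOXP2 cells than to that of mock cells. These contrasts with mock cells were thus not particular to dhelix FOXP2 cells.

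**Figure D4:**
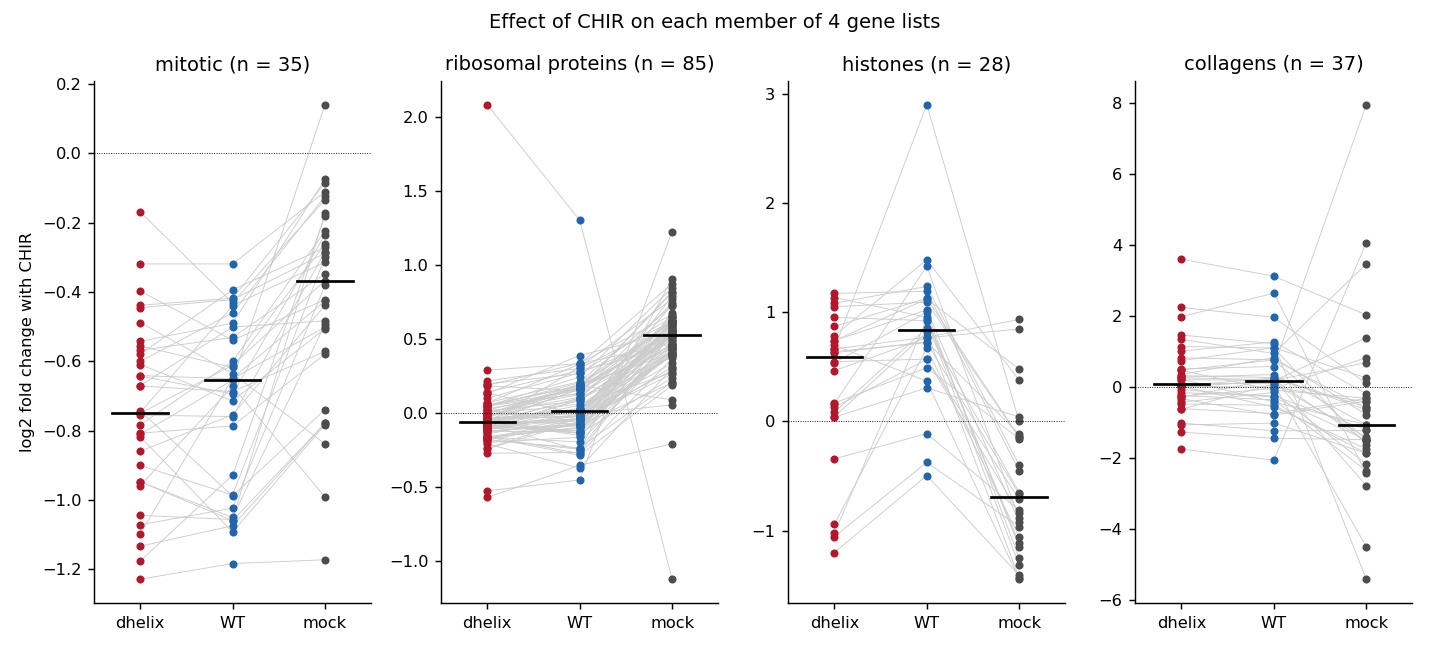
Log2 fold change with CHIR (y axes, a scale of its own for each list) of every tested member of 4 lists in dhelix FOXP2, WT FOXP2 and mock cells; points are genes, grey lines join a gene across the cells and black bars are medians. Ribosomal protein genes centre on -0.06 in dhelix FOXP2 cells and 0.53 in mock cells, and histone genes on 0.59 and -0.69.

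Against WT FOXP2 cells the response was much closer. The difference of effects was called for 2627 genes (14.2%), 1650 with a more positive effect in dhelix FOXP2 cells (8.93%) and 977 with a more negative one (5.29%), and 180 of them differed by 2-fold or more. This split depended on the setting: with no filter on low counts 659 differences were positive and 1510 negative, and with the 3 libraries that stood apart left out 1906 and 1883. Leaving out dhelix FOXP2 replicate 4, WT FOXP2 replicate 2 or 5 or WT FOXP2 + CHIR replicate 2 gave 1021 to 1099 positive differences. Genes called in the same direction in dhelix FOXP2 and WT FOXP2 cells numbered 9374, which is 80.3% of the dhelix FOXP2 calls and 78.1% of the 12004 WT FOXP2 calls (64.9% of all genes), and 155 were called in opposite directions. Pearson's r across genes was 0.888, or 0.91 over the 10603 genes with at least 5 CPM in every group, as a description.

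**Figure D5:**
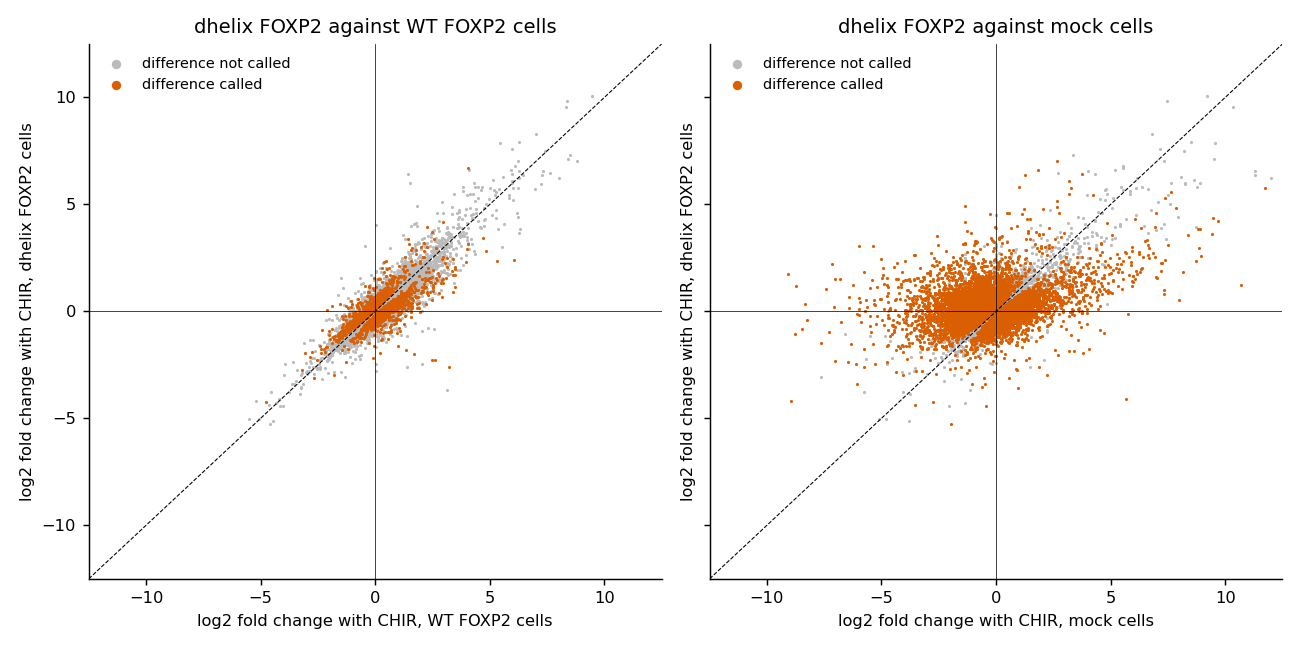
Log2 fold change with CHIR in dhelix FOXP2 cells (y axes) against that in WT FOXP2 cells (left) and in mock cells (right), 1 point a gene; orange points have a called difference (2627 genes on the left, 11987 on the right) and the dashed line marks equal effects. Points hug the line on the left (r = 0.888) and spread widely on the right (r = 0.447).

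None of the 9 Wnt feedback genes had a difference between dhelix FOXP2 and WT FOXP2 cells called by edgeR. At an unadjusted p under 0.05 there were 2, and DESeq2 called 1 of the 8 to which it gave an adjusted p, NOTUM (-0.46 ± 0.17, adjusted p = 0.0658 in edgeR). NOTUM was also called by edgeR with no filter (-0.53, adjusted p = 0.0148), at a mean of at least 1 CPM (-0.49), with only the groups compared (-0.48), without the 3 libraries that stood apart (-0.49), and without dhelix FOXP2 + CHIR replicate 1, dhelix FOXP2 replicate 5, WT FOXP2 + CHIR replicate 1 or WT FOXP2 replicate 2 or 3. With no filter RNF43 was called (0.64, adjusted p = 0.013, edgeR), and with only the groups compared ZNRF3 (0.15, adjusted p = 0.0493, edgeR). The difference was 0.04 ± 0.15 for AXIN2 (adjusted p = 0.892), 0.07 ± 0.08 for LEF1 (adjusted p = 0.606) and 0.70 ± 0.39 for RNF43 (adjusted p = 0.257, edgeR for all). CTNNB1 did differ by a small amount, falling by 0.16 in dhelix FOXP2 cells and by 0.40 in WT FOXP2 cells (difference 0.24 ± 0.04, adjusted p = 4.12e-05, edgeR). FZD8, a Wnt receptor, had log2 fold changes of 0.18 in dhelix FOXP2 cells and -0.74 in WT FOXP2 cells (difference 0.92 ± 0.11, adjusted p = 3.12e-07, edgeR).

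Inflammatory genes were among those with a more positive effect in dhelix FOXP2 cells. TRAF1, an adaptor of TNF receptors and a target of NF-κB, had 79.7, 82.5, 82.2, 80.3 and 91.3 CPM in dhelix FOXP2 + CHIR cells, against 36.4, 40.8, 38.5, 36.5 and 37.7 CPM in dhelix FOXP2 cells, a log2 fold change of 1.13 ± 0.05, while that in WT FOXP2 cells was 0.05 ± 0.05 (difference 1.08 ± 0.07, adjusted p = 1.06e-12, edgeR). The chemokine IL8 had 78.4, 87.6, 85.6, 86.5 and 88.8 CPM with CHIR and 43.9, 52.96, 44.5, 41.6 and 46.1 CPM in dhelix FOXP2 cells (0.90), and its effect in WT FOXP2 cells was -0.25 (difference 1.15 ± 0.09). Both genes thus responded in dhelix FOXP2 cells with non-overlapping groups. On the cytokine and NF-κB list a more positive effect was called for 9 of 24 genes (8.93% of all), with medians of 0.81 in dhelix FOXP2 cells and 0.40 in WT FOXP2 cells. THBS1, a matrix protein that activates TGF-β, had 256, 281, 267, 277 and 291 CPM with CHIR, against 859, 804, 843, 856 and 839.7 CPM in dhelix FOXP2 cells, a smaller fall (-1.61) than in WT FOXP2 cells (-2.42; difference 0.81 ± 0.05) or mock cells (-3.80; difference 2.19 ± 0.05). DYNC1H1, the heavy chain of dynein, HEG1, a receptor of endothelial junctions, and MGAT5, a glycosyltransferase, had differences of 0.46, 0.55 and 0.58.

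The more negative differences were led by genes that rose in both settings, and by less in dhelix FOXP2 cells. MUC5AC, a gel-forming mucin, had 146, 166, 148, 131 and 163 CPM in dhelix FOXP2 + CHIR cells, against 34.6, 46.2, 41.8, 38.0 and 40.3 CPM in dhelix FOXP2 cells, while WT FOXP2 + CHIR and WT FOXP2 cells averaged 53.1 and 5.14 CPM. Its mean level was thus higher with dhelix FOXP2 than with WT FOXP2 at either drug state, and its log2 fold change smaller (1.91 and 3.35; difference -1.44 ± 0.13, adjusted p = 1.12e-09, edgeR). In CHIR and mock cells MUC5AC was at 0.0494 and 0.0474 CPM. MAL, a proteolipid of membrane rafts, rose by 1.31 in dhelix FOXP2 cells and 2.6 in WT FOXP2 cells, and MLC1, a membrane protein of astrocytes, by 0.58 and 1.61. SRL, MYO7A and C19orf77 had differences of -1.50, -1.07 and -1.54. Histone genes also leaned this way, with 8 of 28 called more negative (5.29% of all genes), and medians of 0.59 in dhelix FOXP2 cells and 0.84 in WT FOXP2 cells. CENPA fell further in dhelix FOXP2 cells (-1.10) than in WT FOXP2 cells (-0.65; difference -0.45 ± 0.06, adjusted p = 1.96e-06, edgeR), while no difference was called for KIF20A ( -0.04 ± 0.06, adjusted p = 0.705, edgeR). The mitotic list as a whole had 4 more positive (8.93% of all genes) and 5 more negative (5.29%) differences of 35.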

How the data were processed

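RNA was sequenced paired-end from stranded mRNA libraries, per the labels' protocols. The values used are the whole-number gene counts deposited by the authors, not normalised, 1 column per library; STAR 2.6.1a, Subread with featureCounts, DESeq2 and the build hg19 stand in the submitters' processing notes. The annotation release, the strand setting and the unit counted (read or fragment) are not given in the sources, so overlapping antisense genes and near-identical copies are uncertain.

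From these, 18485 of 57373 genes passed edgeR's expression filter over the 6 groups (99.9% of counts). Library sizes were scaled by edgeR's TMM method, and all 30 libraries entered 1 quasi-likelihood fit (R 4.3.3, edgeR 4.0.16, robust) with a mean per group; adjusted p-values are Benjamini-Hochberg over all genes, with a threshold of 0.05. A standard error is the log2 fold change divided by the root of F. The common biological coefficient of variation was 5.6%. Differences of CHIR effects are contrasts in that fit. FOXP2 was also compared with an exact permutation test. The step was tested on simulated data.

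Named are FOXP2, CTNNB1, AXIN2 and LEF1, the 12 largest called changes per direction (mean of at least 1 CPM, no overlap), the 6 smallest p per direction of each difference, up to 4 called members of a list, and any tested member of the Wnt lists. A few genes that the rule names are not reported here. The members and lists were chosen with earlier results of these data known. Gene types come from GENCODE release 29 by ID, and promoters from RefSeq by symbol on GRCh38.p14; no coordinates are taken from the hg19 counts. The alternatives were DESeq2 size factors, DESeq2 1.42.0, FOXP2 left out of library sizes, a floor of 1 CPM on the mean, no filter on low counts, only the groups compared, a test against a 2-fold change, a replicate block, and each library left out; a thinning of all libraries to 15755842 counts and a fit without the 3 libraries that stood apart were added after seeing the data. Every pair of replicates differed by more than sampling noise. With nothing on separate cultures, p-values measure the spread between these samples, which may be technical. Intervals and floors cover counting error only, since reads carry no molecular identifiers.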

Additional observations from a re-analysis of the deposited data

Results flagged for a closer look

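The cause of none of these results was tested. In 7 of 100 groups of 5 libraries examined (7%), 1 library lay far from the other 4. The usual chance rate of about 1 in 20 does not hold for groups with very few counts. Those of CST1, RP11-95P13.1 and RP11-431M7.2 in dhelix FOXP2 cells are such groups. dhelix FOXP2 + CHIR replicate 1 had 2.37 CPM of LINC00707 (the others 2.87 to 2.99) and 0.201 CPM of C15orf54 (the others 0.110 to 0.124), and dhelix FOXP2 + CHIR replicate 5 had 91.3 CPM of TRAF1 (the others 79.7 to 82.5). dhelix FOXP2 replicate 4 had 70.9 CPM of GADD45A (the others 76.4 to 78.4) and 0.0757 CPM of CST1 (the others 0). For genes with a single count in their group, dhelix FOXP2 replicate 2 had 0.0350 CPM of RP11-95P13.1 and dhelix FOXP2 replicate 3 had 0.0347 CPM of RP11-431M7.2.

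Differences between effects of CHIR, tested in the edgeR fit, were called for 11987 genes against mock cells and 2627 against WT FOXP2 cells. Against mock cells the effect in dhelix FOXP2 cells was more positive for FOXP2 (2.22, from a level near 0 in mock cells), CTNNB1 (0.38), LMCD1 (4.07), SMOC1 (5.26), ENC1 (2.43), THBS1 (2.19), BHLHE41 (3.88) and EPHB3 (5.49). It was more negative for SLAMF7 (-4.28), LIMA1 (-2.88), MGAT5 (-2.08), DOCK4 (-2.63), SYTL3 (-2.76) and GADD45A (-2.86). Against WT FOXP2 cells it was more positive for CTNNB1 (0.24), THBS1 (0.81), TRAF1 (1.08), IL8 (1.15), DYNC1H1 (0.46), HEG1 (0.55) and MGAT5 (0.58). It was more negative for MLC1 (-1.03), MAL (-1.29), MUC5AC (-1.44), SRL (-1.50), MYO7A (-1.07) and C19orf77 (-1.54).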

How the results depend on the processing

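Calls of CHIR in dhelix FOXP2 cells numbered 10307 to 12787 over the settings with the same null, against 11680. The genes tested differed too, so these counts are not shares of one total. No filter gave 12787 calls of 39995 genes, a mean of at least 1 CPM 10307 of 15160, and the main fit 11680 of 18485. A test against a 2-fold change called 1140 genes, 864 higher and 276 lower. For differences from WT FOXP2 cells (2627; 1650 more positive, 977 more negative), no filter gave 659 more positive and 1510 more negative, only the groups compared 4291 in all with 2032 more negative, and leaving out the 3 libraries that stood apart 1883 more negative; the cause was not tested. With each library left out in turn, calls were 11279 to 11497 (5558 to 6198 higher, 5130 to 5839 lower), differences from mock cells 11729 to 12425 (5468 to 6045 and 5792 to 6536) and from WT FOXP2 cells 1973 to 2603 (1021 to 1594 and 804 to 1124), and the FOXP2 log2 difference 1.29 to 1.39. A replicate block gave 11726 calls, and 12006 and 2708 differences. Same-numbered libraries of the dhelix FOXP2 groups correlated by -0.026 to 0.038. Such low correlations cannot exclude that the numbers pair samples. Of 505 values of single genes, none changed direction past the threshold, and without the 3 libraries 481 kept their direction and side of the threshold. GADD45A lost its fall in dhelix FOXP2 cells in 4 fits without 1 library, and SMOC1 when thinned (adjusted p = 0.0511, edgeR). CTNNB1 lost its difference from WT FOXP2 cells with no filter (0.18, adjusted p = 0.0562, edgeR). The small rise of FZD8 in dhelix FOXP2 cells lost its call with no filter, when thinned and in 7 fits without 1 library, while its difference from WT FOXP2 cells kept its call in every fit run. Depth limits genes with few counts, whose ratios have wide intervals.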
